A study of Papio anubis with 40 samples.

Results

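Plasma microRNAs of 8 olive baboons (Papio anubis) at month 9 after induction of endometriosis were compared with those of the same animals at month 6. The comparison used 16 of the 40 small RNA libraries of the study, 8 at month 9 and 8 at month 6, chosen by the month given in the labels and paired by animal. All 40 libraries, which also cover months 0, 3 and 15, entered the fit so that the spread was estimated from every time point. All animals had menstrual tissue placed in the peritoneal cavity by laparoscopy, and their label for treatment reads "No treatment". The labels give 0.5 mL of plasma as the source of every library, whereas the series' design text names serum. The month 0 libraries, from before inoculation, entered the fit but not this comparison. No separate group of uninoculated animals was analysed here. Time after inoculation, ageing and the length of storage therefore cannot be told apart. Of 2731 rows of the count table, each a mature microRNA under its human name, 615 had a count in at least 1 of the 16 libraries and 318 passed the filter on low counts and were tested. Those 318 rows, 21 of which join several names with a slash, held 99.97% of the counts of the 16 libraries. A joined row cannot be divided between its members.

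MicroRNAs are short RNAs that are loaded into Argonaute proteins and pair with messenger RNAs, whose translation or stability they lower. In blood plasma they are carried in protein complexes, lipoproteins and vesicles, and come mainly from red cells, platelets, white cells, the endothelium and the liver. miR-122-5p is the hallmark microRNA of hepatocytes, miR-451a and miR-486-5p are typical of red cells, miR-223-3p of myeloid cells and platelets, and miR-126-3p of endothelium and platelets. These assignments come chiefly from human and mouse. In a bulk plasma sample, fewer cells of a type and less RNA released per cell cannot be told apart.

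The total count per library had its lowest, median and highest values at 920618, 1775616.5 and 3622363 at month 9, against 710943, 1635318.5 and 5824111 at month 6. The number of rows with a count was 352.9 ± 33.8 at month 9 and 360.8 ± 61.4 at month 6 (SD, n = 8 each). Paired by baboon, neither measure differed beyond its spread between animals (exact sign-flip permutation test, two-sided, p = 0.914 for the log2 total and p = 0.641 for the rows; the smallest p that 8 pairs allow is 0.00781). The libraries that stood apart were the month 9 library of PA8001, where miR-122-5p alone took 78.6% of the counts and the scaling factor was 0.358, and the month 6 library of PA8912, the deepest of the 16 and the 1 with the lowest share of miR-122-5p, at 0.307%. No 2 of the 16 libraries were identical. Where a library lists 0, a level of up to 3 counts is allowed, equal to 0.374 CPM in the deepest library and 3.97 CPM in the shallowest (CPM, counts scaled by TMM to a common library total).

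No microRNA passed the threshold between month 9 and month 6. At an adjusted p under 0.05 in the quasi-likelihood test of edgeR, 0 of 318 rows were called (0%), and at an unadjusted p under 0.05 there were 18 (5.66%), 12 of them higher at month 9 (3.77%) and 6 lower (1.89%). The smallest adjusted p in edgeR was 0.478. limma-voom also called 0 rows, with 25 at an unadjusted p under 0.05. The same edgeR test without the filter on low counts called 2 rows, miR-122-5p and miR-365a-3p/365b-3p, both higher at month 9. DESeq2 called 32 rows, 15 higher and 17 lower, of which 4 were among the 318: miR-100-5p, miR-122-5p, miR-125b-5p and miR-365a-3p/365b-3p, all higher at month 9. Its other 28 calls were rows outside the filter with 3 to 153 counts in all 16 libraries together and a count in at most 3 of them. The values that follow are therefore a description of the rows with the smallest p, not of called changes.

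Over all 318 rows 137 were higher at month 9 (43.1%) and 181 lower (56.9%), with a median log2 change of -0.061. That median depended on the scaling: it was -0.01 with the size factors of DESeq2, -0.15 with factors from the upper quartile and -0.25 when libraries were scaled by their totals alone. In 11 rows at least 7 of 8 baboons were higher at month 9 (3.46%), and in 14 rows at least 7 were lower (4.40%). miR-100-5p and miR-1301-3p were higher at month 9 in 8 of 8 baboons (0.629% of rows), and miR-221-3p was lower in 8 of 8 (0.314%). Among 318 rows some share a sign in all animals by chance, and these counts were not tested against that. In 20 rows the fitted change was at least 1 log2 in either direction (6.29%). In 0 rows (0%) were the 8 libraries of month 9 all above or all below the 8 of month 6.

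Hepatocyte miR-122-5p had the highest mean CPM over the 16 libraries and was among the 4 rows with the smallest p. Its share of all counts at month 9, and then at month 6, was 78.6% and 51.0% in PA8001, 31.5% and 16.7% in PA8003, 34.2% and 3.75% in PA8835, and 10.6% and 0.307% in PA8912. In the other 4 baboons it did not exceed 7.54% at either month. It was 6.95% and 7.54% in PA8914, 2.71% and 1.62% in PA8873, 1.35% and 1.33% in PA8872, and 1.14% and 2.64% in PA8915. The differences between months thus lay mainly in 4 animals, and at either month the animals differed from each other by more than most of them differed between months. miR-122-5p was the row with the most counts in 3 libraries at month 9 and in 1 at month 6, and miR-16-5p was that row in all others. In CPM the lowest, median and highest libraries had 12870, 87130 and 2196000 at month 9, against 2229, 29140 and 673500 at month 6; the top value exceeds the scaled library total because TMM divides by a factor below 1. The fitted log2 change was 1.78 (SE 0.596, 3.43-fold, edgeR adjusted p = 0.478), with 6 of 8 baboons higher at month 9. Per baboon it ran from -0.54 in PA8915 to 5.23 in PA8912. Its adjusted p depended strongly on the setting. The lowest was 3.94e-06, in edgeR without the filter on low counts, at a similar log2 change of 1.83. DESeq2 gave an adjusted p of 0.0174, and the highest was 0.9935, in edgeR without PA8912. The paired difference of log2 CPM, 1.40 ± 2.03 (SD, n = 8), had p = 0.0859 in the exact sign-flip permutation test (0.430 adjusted over 5 library measures).

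miR-365a-3p/365b-3p, made in liver among other tissues, had 34.95, 103 and 1414 CPM at month 9 (lowest, median, highest), against 27.2, 37.8 and 119 CPM at month 6. The high end at month 9 was the library of PA8001 alone, since the next highest, PA8912, had 193 CPM. Its log2 change was 1.42 (SE 0.485, edgeR adjusted p = 0.478), higher in 6 of 8 baboons, and it was 0.83 without the month 9 library of PA8001, 0.86 without PA8001 and 2.24 without the replicate block. miR-193a-5p, also liver-enriched, had 288, 568 and 1871 CPM at month 9 against 39.0, 421 and 1087 CPM at month 6. The months overlapped across most of that range, while 7 of 8 baboons were higher at month 9, with a log2 change of 0.82 (SE 0.386, edgeR adjusted p = 0.733). With log2 CPM of miR-122-5p as a covariate the change was 0.74 for miR-365a-3p/365b-3p and 0.30 for miR-193a-5p, so both were smaller by over 1.5 times.

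All 11 tested members of the liver list had a fitted change above 0, against 43.1% of all rows, and their median log2 change was 0.78, against -0.061 over all rows; 4 of the 11 had an unadjusted p under 0.05 and 0 passed the threshold. The remaining members were miR-885-5p at 1.39, miR-483-3p at 0.84, miR-885-3p at 0.78, miR-483-5p at 0.77, miR-99a-5p at 0.67, miR-148a-3p at 0.47, miR-192-5p/215-5p at 0.18 and miR-194-5p at 0.09. miR-192-5p/215-5p and miR-194-5p are made in gut epithelium as well as liver, and miR-99a-5p is also on the endothelial and stromal list. Per baboon the median over the 11 was 2.60 in PA8912, 1.91 in PA8835, 1.15 in PA8001, 0.678 in PA8003, 0.432 in PA8873 and 0.238 in PA8914, and it was below 0 in PA8872 (-0.612) and PA8915 (-0.649). The list therefore did not move one way in every animal. This list and those below were chosen with earlier results of these data known. Their shares beside those of all rows are therefore description and not independent support. The summed level of the liver list, nearly all of it miR-122-5p, had a median of 88480 CPM at month 9 and 30070 CPM at month 6. With library totals alone 9 of 11 members were above 0 and their median was 0.53, against -0.25 over all rows under that scaling; leaving out PA8001 also gave 9 of 11, with a median of 0.79. With log2 CPM of miR-122-5p as a covariate 7 of the 10 other members were above 0, with a median of 0.31, against 0.02 over all rows in that fit.

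**Figure D1:**
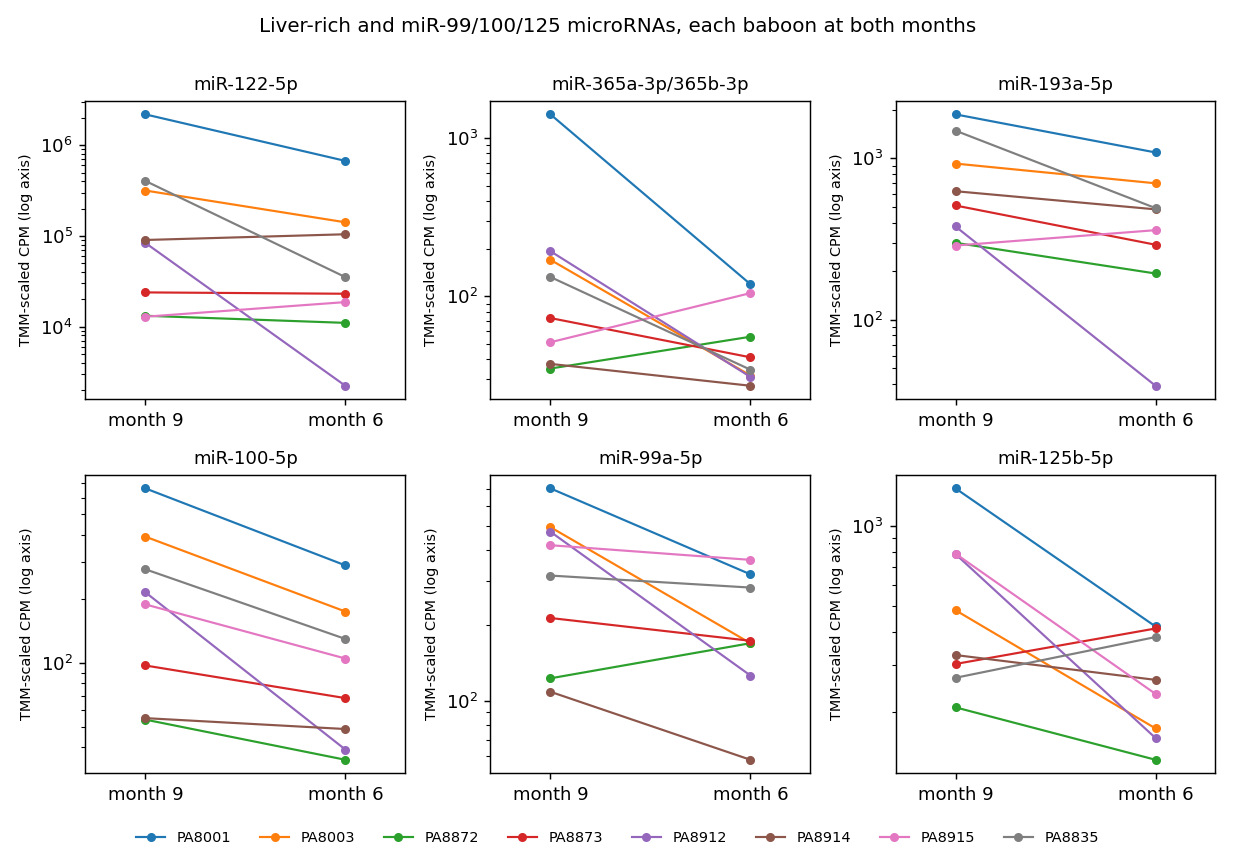
TMM-scaled CPM (log axis) of miR-122-5p, miR-365a-3p/365b-3p, miR-193a-5p, miR-100-5p, miR-99a-5p and miR-125b-5p in each baboon, with month 9 on the left of each panel, month 6 on the right and a line joining the libraries of an animal. In miR-100-5p every line is higher at its month 9 end, while the month 9 and month 6 ranges overlap in all 6 panels.

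miR-100-5p had the smallest p of all rows. In human and mouse miR-100, a let-7 and miR-125b come from a shared primary transcript, miR-99a, another let-7 and a further copy of miR-125b from a second one, and these microRNAs are abundant in fibroblasts, smooth muscle and endothelium. miR-100-5p had 54.0, 202 and 664 CPM at month 9 (lowest, median, highest), against 34.9, 86.5 and 288 CPM at month 6. It was higher at month 9 in all 8 baboons, by 0.17 log2 in PA8914 up to 2.43 in PA8912, although the months overlapped between animals. The fitted log2 change was 0.98 (SE 0.298, 1.97-fold, unadjusted p = 0.00242, edgeR adjusted p = 0.478), and it kept its sign in all 23 alternative settings, between 0.54 and 1.16. Over those settings its adjusted p ran from 0.0312, in DESeq2, to 1. The smallest change was that of the fit with log2 CPM of miR-122-5p as a covariate.

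miR-125b-5p had 208, 405 and 1389 CPM at month 9, against 132, 248 and 419 CPM at month 6. At month 9 PA8001, PA8003, PA8912 and PA8915 were above every month 6 library, and PA8873 and PA8835 were below their own month 6 values, by -0.44 and -0.51 log2. The fitted change was 0.94 (SE 0.311, 1.92-fold, edgeR adjusted p = 0.478), with 6 of 8 baboons higher. miR-99a-5p, which differs from miR-100-5p by a small part of its sequence, had 109, 367 and 704 CPM at month 9 against 58.2, 172 and 364.9 CPM at month 6. Of the 8 baboons 7 were higher at month 9 and PA8872 was lower, by -0.46 log2, with a fitted change of 0.67 (SE 0.264, 1.59-fold, edgeR adjusted p = 0.733). With log2 CPM of miR-122-5p as a covariate the changes were 0.85 for miR-125b-5p and 0.56 for miR-99a-5p; the part of the miR-122-5p level in these values was not tested further.

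The endothelial and stromal list, to which these 3 belong, had 15 of 19 tested members above 0 and a median log2 change of 0.45, with 5 at an unadjusted p under 0.05, 4 of them higher. Over all rows 43.1% were above 0, the median was -0.061 and 5.66% had such a p. This list too was chosen with earlier results of these data known. Per baboon the list median was 1.44 in PA8912, 0.504 in PA8873, 0.403 in PA8001, 0.400 in PA8872 and 0.296 in PA8915. It was below 0 in PA8914 (-0.0081), PA8003 (-0.208) and PA8835 (-0.46), where 4 of 19 members were higher. miR-143-3p, a smooth muscle and fibroblast microRNA, averaged 10660 ± 3959 CPM at month 9 and 6453 ± 2339 CPM at month 6 (SD, n = 8 each). It was higher in 5 of 8 baboons and lower in 3, with a log2 change of 0.75 (SE 0.362, edgeR adjusted p = 0.733). miR-145-5p, made from the same precursor transcript as miR-143, was at 0.60, and miR-125a-5p, of the miR-125 family, at 0.58. miR-126-3p and miR-126-5p, the endothelial pair from the EGFL7 gene, were at -0.02 and 0.02, near the median of all rows, and both turned in sign under some of the alternative settings. miR-503-5p and miR-221-3p, also on this list, were lower and are described with the other lower rows. miR-221-3p was higher in 0 of 8 baboons, and miR-424-5p was at -0.29. Under library totals alone 13 of 19 members were above 0, with a median of 0.26, against -0.25 over all rows.

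Of the other rows with a small p and higher values at month 9, miR-3614-5p had 6.24, 16.6 and 54.0 CPM at month 9 against 0, 6.98 and 28.0 CPM at month 6, from 14 to 70 counts and 0 to 58 counts per library. It was higher in 7 of 8 baboons (log2 change 1.42, SE 0.555, edgeR adjusted p = 0.733). miR-497-5p, which shares its seed with miR-15 and miR-16, averaged 78.8 ± 40.5 CPM at month 9 and 45.2 ± 22.3 CPM at month 6 (SD, n = 8 each), higher in 6 of 8. miR-30d-3p, the less abundant arm of its hairpin, averaged 16.8 ± 10.8 CPM at month 9 and 9.62 ± 4.05 CPM at month 6, also higher in 6 of 8. The months overlapped for both, and with library totals alone their log2 changes were 0.50 and 0.41, against 0.75 and 0.71 with TMM.

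miR-372-3p, known from human embryonic stem cells and placenta, rested on few counts. It was at 0 in 2 libraries of each month and otherwise reached 64 counts at month 9 and 37 at month 6 (log2 change 1.49, SE 0.706, edgeR adjusted p = 0.733). Without PA8835 the change was 0.74, without the replicate block 0.92 and in limma-voom 0.68. The 12 rows with higher values and an unadjusted p under 0.05 also included miR-143-3p, given above, and miR-211-5p. The last is named after its values were seen: it averaged 6.92 CPM at month 9 and 0.673 CPM at month 6, with libraries at 0 in both months.

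Among the 10 named rows with lower values at month 9 the changes were all below 1 log2 in size, except that of miR-330-3p. miR-32-3p, the minor arm of the hairpin of miR-32, had 58.1, 97.5 and 133 CPM at month 9 (lowest, median, highest), against 78.0, 136 and 175 CPM at month 6. It was lower in 7 of 8 baboons, with a log2 change of -0.55 (SE 0.225, edgeR adjusted p = 0.733). miR-503-5p, clustered on the X chromosome with miR-424 in human and known as an antiproliferative and endothelial microRNA, had 189, 239 and 326 CPM at month 9 against 240, 325 and 483 CPM at month 6. It was also lower in 7 of 8, by -0.41 (SE 0.171, edgeR adjusted p = 0.733), with PA8001 the exception. miR-628-3p had the smallest p of the lower rows, with 106, 117 and 144 CPM at month 9 against 103, 144 and 253 CPM at month 6, and was lower in 6 of 8 (log2 change -0.37, SE 0.149, edgeR adjusted p = 0.733). For all 3 the months overlapped. Without the month 6 library of PA8912 miR-503-5p was at -0.26, and with log2 CPM of miR-122-5p as a covariate miR-32-3p was at -0.30. miR-221-3p, of endothelium and smooth muscle and named for its shared sign in 8 of 8 baboons, had 49.4, 110 and 171 CPM at month 9 against 67.1, 112 and 417 CPM at month 6 (log2 change -0.38, SE 0.274). miR-1301-3p, named on the same ground, averaged 33.2 ± 8.58 CPM at month 9 and 24.2 ± 7.36 CPM at month 6 (SD, n = 8 each; log2 change 0.43, SE 0.231).

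miR-9-5p, a microRNA of neural progenitors that myeloid cells also induce, had 15.7, 27.2 and 79.4 CPM at month 9 against 17.6, 70.1 and 111 CPM at month 6. Its log2 change was -0.93 (SE 0.401, edgeR adjusted p = 0.733), lower in 6 of 8 baboons, while PA8003 was higher by 0.66 and PA8872 by 0.20. It was -0.57 without PA8912, -0.53 without the month 6 library of PA8912 alone and -0.48 with log2 CPM of miR-122-5p as a covariate. miR-128-3p, enriched in brain, averaged 445 ± 75.8 CPM at month 9 and 545 ± 55.9 CPM at month 6 (SD, n = 8 each) and was lower in 7 of 8, by -0.31 (-0.17 without PA8912). miR-181a-2-3p averaged 38.8 ± 12.9 CPM at month 9 and 52.0 ± 14.4 CPM at month 6 and was lower in 7 of 8, by -0.45. The months overlapped for each of these 3 rows.

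Both arms of the myeloid miR-223 were lower on average. miR-223-3p averaged 4724 ± 2137 CPM at month 9 and 7350 ± 4645 CPM at month 6 (SD, n = 8 each), with a log2 change of -0.62 (SE 0.307, edgeR adjusted p = 0.733). The month 6 mean held the 17690 CPM of PA8912, and the log2 changes of PA8003 and PA8912, -1.85 and -1.74, were far below the -0.60 to 0.12 of the other 6 baboons. Without PA8912 the fitted change was -0.29. miR-223-5p averaged 649 ± 235 CPM at month 9 and 919 ± 298 CPM at month 6, and was lower in 4 of 8 baboons, with a log2 change of -0.47 (-0.26 without PA8003). miR-1262 was likewise lower in 4 of 8, with a log2 change of -0.76 (-0.36 without PA8003). miR-330-3p had the largest negative change, -2.88 (SE 1.26), but was at 0 in 5 libraries at month 9 and 4 at month 6. Its counts reached 4 at month 9 and 78 at month 6, the 78 being the library of PA8912.

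**Figure D2:**
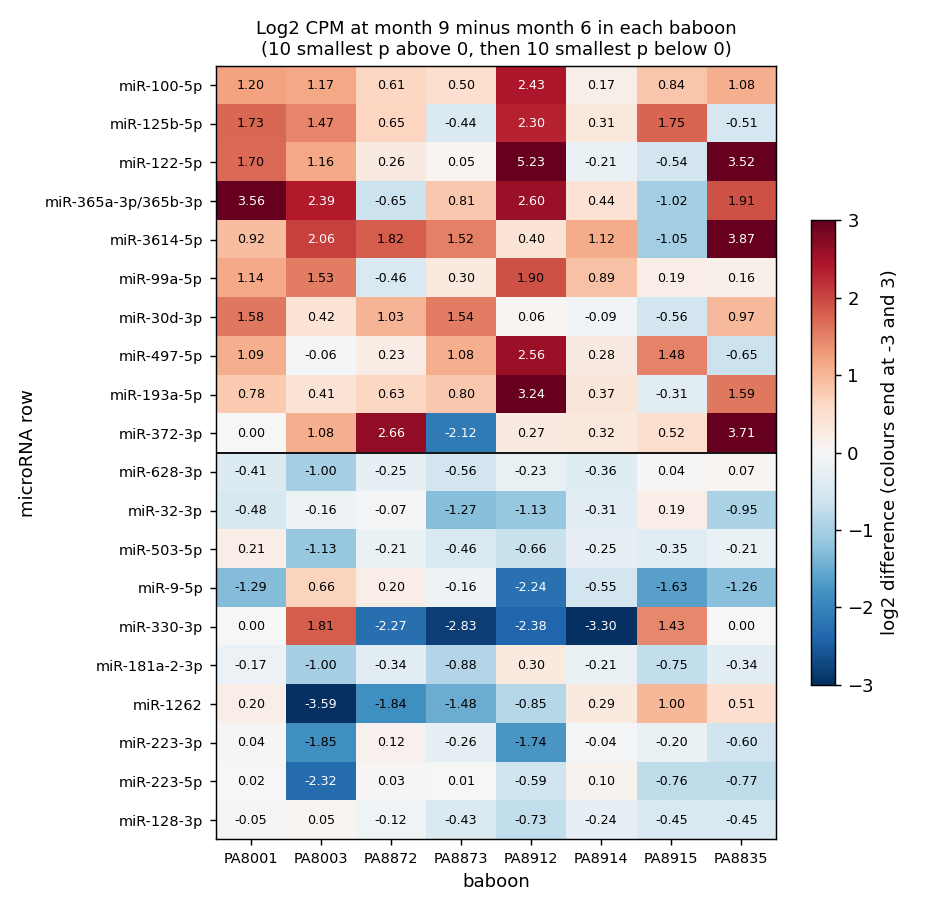
Log2 difference of CPM, month 9 minus month 6, for the 10 rows with the smallest p among those higher at month 9 and the 10 among those lower (rows), in each of the 8 baboons (columns); colour gives sign and size. PA8912 shows the strongest colours in many rows (5.23 for miR-122-5p), and miR-100-5p is the row with the same sign in all 8 animals.

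Of the 10 most abundant rows, miR-122-5p was described above, and the other 9 had fitted changes between -0.38 and 0.18. miR-16-5p, which red cells contain in large amounts, averaged 224900 ± 110400 CPM at month 9 and 217600 ± 132300 CPM at month 6 (SD, n = 8 each; log2 change 0.11, SE 0.263). Red cell miR-486-5p averaged 102300 ± 36820 CPM at month 9 and 102900 ± 61050 CPM at month 6 (0.12, SE 0.309). Each was higher in 4 or 5 of 8 baboons, and their directions turned under library totals alone. Of the others among the 10 highest, let-7b-5p was at 0.18 (SE 0.197), let-7a-5p/7c-5p at -0.12 (SE 0.186), let-7g-5p at -0.23 (SE 0.165), let-7f-5p at -0.38 (SE 0.221), and miR-93-5p, of the miR-17 family, at -0.08. The directions of let-7b-5p, let-7a-5p/7c-5p and miR-93-5p turned in at least 1 alternative setting each.

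The haemolysis index, log2 CPM of red cell miR-451a minus that of miR-23a-3p/23b-3p, a joined row that varies little with red cell lysis, was 0.0617 ± 0.982 at month 9 and -0.145 ± 0.426 at month 6 (SD, n = 8 each). It was higher at month 9 in 4 of 8 baboons (exact sign-flip permutation test, p = 0.531, adjusted p = 0.801). miR-451a itself averaged 1442 ± 785 CPM at month 9 and 1805 ± 1606 CPM at month 6, and miR-23a-3p/23b-3p 1459 ± 1278 CPM at month 9 and 2108 ± 2106 CPM at month 6. The month 9 value of PA8001 had the lowest index of the 16, -1.92. Of the 11 tested erythrocyte members 5 were above 0, against 43.1% of all rows. Their median log2 change was -0.01 (0.03 with the size factors of DESeq2), against -0.061 over all rows. Their summed level had a median of 331400 CPM at month 9 and 302400 CPM at month 6. miR-15b-5p was at -0.34, higher in 1 of 8 baboons, and miR-25-3p at -0.14. No shift in red cell microRNAs beyond the spread between animals was detectable here.

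**Figure D3:**
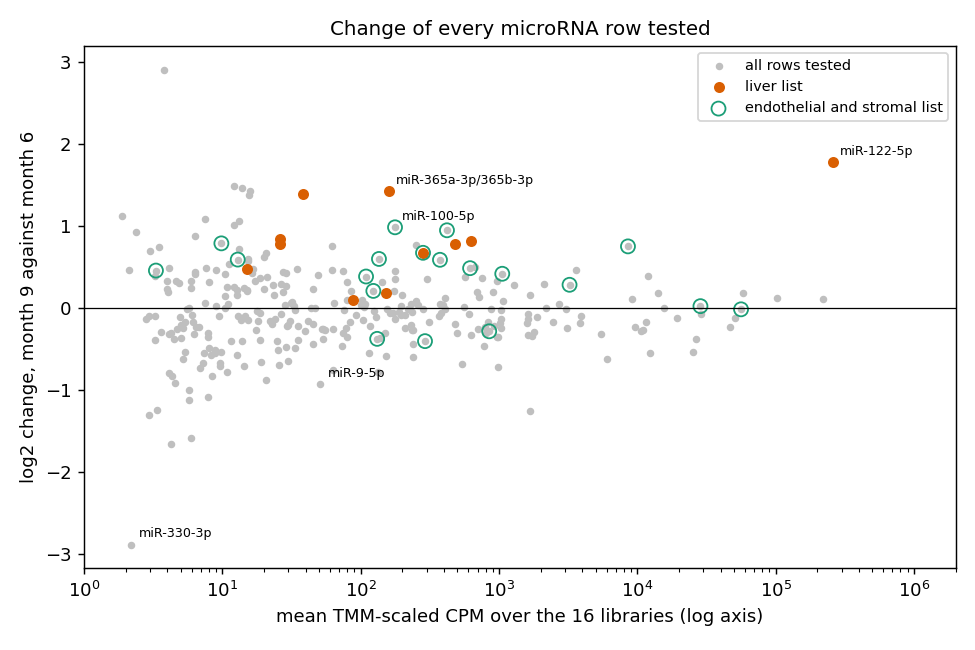
Fitted log2 change, month 9 against month 6, against mean CPM over the 16 libraries (log axis) for the 318 tested rows, with liver list members as filled orange points and endothelial and stromal members as green rings. All 11 liver members lie above 0 under TMM scaling (9 of 11 with library totals alone), and miR-122-5p stands alone at the right at 1.78.

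White cell microRNAs were mostly lower in fitted value. Of 12 tested myeloid members 10 were below 0, with a median of -0.30, and of 13 lymphocyte members 10 were below 0, with a median of -0.24, against 56.9% below 0 and a median of -0.061 over all rows. Per baboon the lymphocyte median was above 0 in PA8873 (0.416), PA8914 (0.133) and PA8001 (0.0398), and the myeloid median in PA8873 alone (0.155). The myeloid median lay near 0 in PA8001 (-2.55e-05) and PA8914 (-0.0172), where 6 and 5 of the 12 members were higher. miR-150-5p, the microRNA of mature lymphocytes, averaged 640 ± 290 CPM at month 9 and 1340 ± 1069 CPM at month 6 (SD, n = 8 each), with a log2 change of -0.72 and 2 of 8 baboons higher. Its medians were closer, at 543 and 665 CPM. PA8872, PA8912 and PA8915 changed by -2.21, -1.37 and -2.61 log2, and the other animals by -0.54 to 0.70. miR-146a-5p, induced by NF-kB signalling, was at -0.46, and miR-155-5p, of activated lymphocytes and macrophages, at -0.33, each higher in 2 of 8. Leaving out each baboon gave -0.72 to -0.25 for miR-146a-5p and -0.46 to -0.09 for miR-155-5p. With log2 CPM of miR-122-5p as a covariate miR-146a-5p was at -0.34 and miR-155-5p at -0.01. miR-30e-5p went the other way, with 13710 ± 5545 CPM at month 9 and 10190 ± 3082 CPM at month 6, higher in 7 of 8 (log2 change 0.39). The only white cell list member with an unadjusted p under 0.05 was miR-143-3p, on the myeloid list but better known from smooth muscle. miR-150-3p, the other arm of the miR-150 hairpin, was at -0.70 and the joined row miR-27a-3p/27b-3p at -0.31 (0.08 without PA8912). None of the members of either list passed the threshold in edgeR.

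Of the 15 platelet members 10 were below 0 (median -0.10), with miR-191-5p at -0.53 and miR-22-3p at 0.35. Of the 10 epithelial members 7 were above 0 (median 0.31), led by miR-203a-3p of skin at 1.46 and miR-375-3p of endocrine and gut epithelium at 0.50, each higher in 5 of 8 baboons. Epithelial miR-205-5p was at 0.46 and miR-31-5p at 0.39, each higher in 4 of 8. The 7 neural members had a median of -0.48, with 5 below 0, among them miR-9-5p, miR-9-3p at -0.59 and miR-138-5p at -0.48. The members above 0 were miR-132-3p at 1.12 (SE 1.04), the largest change on the list, and miR-7-5p at 0.05. Per baboon the neural median ran from -0.592 in PA8001 to 0.0489 in PA8003. It was 0 in PA8872, -0.0191 in PA8873 and -0.00428 in PA8912. The 7 muscle members had 3 above 0 and a median of -0.04, with miR-1-3p at -0.55, miR-133a-3p/133b at -0.78 and miR-499a-5p of heart and slow muscle at 0.44. miR-378a-3p/378c/378d/378e, known from mitochondrial metabolism, was at 0.20 and turned to -0.09 when libraries were scaled by their totals. The platelet, epithelial, neural and muscle lists held 0, 0, 1 and 0 rows with an unadjusted p under 0.05. Over all rows 43.1% were above 0, 56.9% were below 0 and 5.66% had such a p, with a median of -0.061.

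Apart from the miR-30 family, the families and clusters lay near the median of all rows, -0.061, and 43.1% of all rows were above 0. The let-7 family had 2 of 8 tested rows above 0 (median -0.15), the miR-17 clusters 1 of 11 (median -0.08) and the imprinted DLK1-DIO3 cluster 12 of 29 (median -0.07). Within let-7, let-7d-5p was at -0.31 and let-7e-5p at 0.37. Within the miR-17 clusters, miR-19b-3p was at -0.71, miR-20b-5p at -0.17 and miR-106b-3p, a minor arm, at 0.28. In the imprinted cluster, miR-493-3p was at -0.89, miR-323a-3p at -0.54, miR-431-5p at -0.40 and miR-409-5p at 0.87, so its members did not share a direction. The miR-30 family had 3 of 4 above 0 (median 0.25), with miR-30a-5p at 0.46 and the joined row miR-30b-5p/30c-5p at -0.44. The hypoxia and fibrosis list had 7 of 13 above 0 (median 0.04, and -0.03 and -0.18 with upper-quartile factors and library totals), with miR-29a-3p at 0.29 and miR-29c-3p, known to target collagen messages, at 0.28. The inflammation list had 3 of 11 above 0 (median -0.36).

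Of 25 tested microRNAs named in the endometriosis literature, 14 were above 0, with a median of 0.16 (-0.11 with library totals alone), and 4 had an unadjusted p under 0.05, all higher: miR-100-5p, miR-125b-5p, miR-122-5p and miR-143-3p. Over all rows 43.1% were above 0 and 5.66% had such a p. The list was chosen with earlier results of these data known, and each of these 4 rows is also on another list. None of the 16 lists had a member past the threshold. Several of these counts turned with 1 animal. Without PA8912 the median of all rows was 0.04. The rows above 0 were then 9 of 11 in the miR-17 clusters (1 of 11 with all animals), 5 of 8 in let-7 (2 of 8), 9 of 15 on the platelet list (5 of 15) and 9 of 11 on the erythrocyte list (5 of 11). With library totals alone 1 of 11 erythrocyte, 1 of 7 muscle and 11 of 25 endometriosis rows were above 0.

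**Figure D4:**
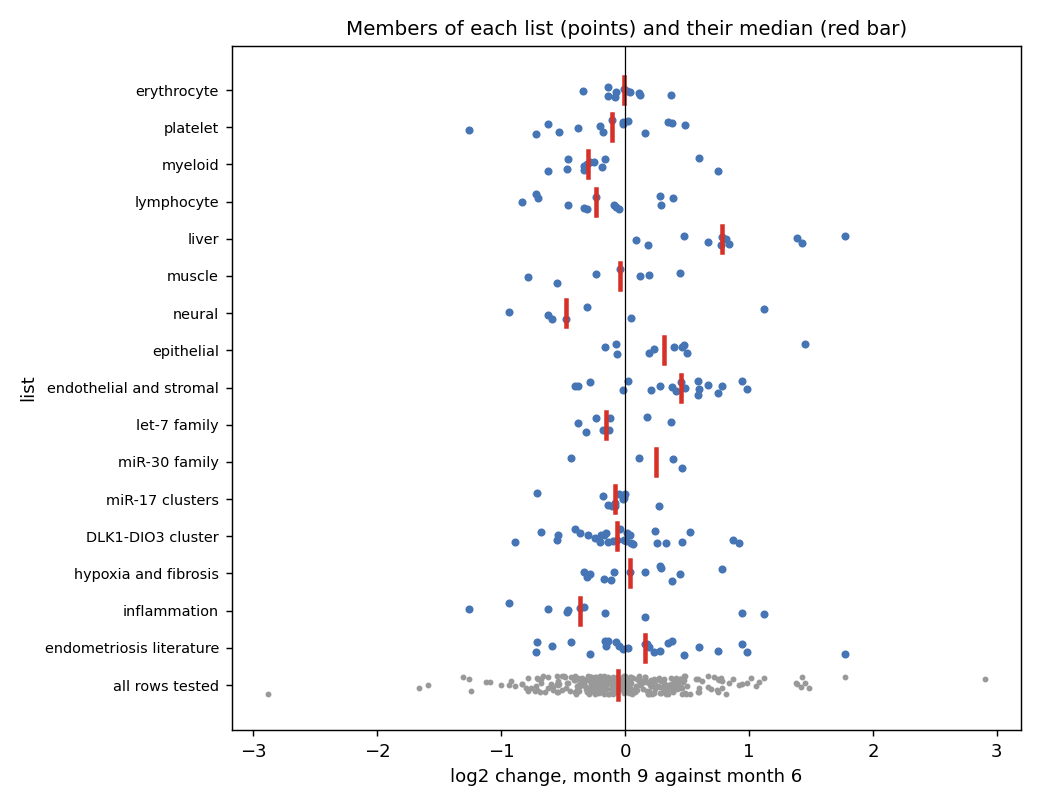
Fitted log2 change, month 9 against month 6, of each tested member (points) of the 16 lists and their medians (bars), with all 318 rows at the bottom. The liver median lies at 0.78 and the endothelial and stromal median at 0.45, and the neural median lowest at -0.48, against -0.061 for all rows.

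Some rows were present in full or missing altogether from library to library. miR-24-3p, an abundant microRNA of many cells, was at 0 in 4 libraries of each month and held 1597 to 43201 counts in the others. miR-652-3p was at 0 in 2 libraries at month 9 and 1 at month 6 and otherwise held 361 to 8957 counts. miR-326-3p and miR-760 did the same at lower counts. The fitted change of such a row (-1.26 for miR-24-3p, SE 2.97) reflects which libraries read 0, and it is not read here as a level. miR-24-3p still counts among the members below 0 on the platelet and inflammation lists, and it enters their medians. Among the rows not tested, miR-128-1-5p had a count in 0 of 8 libraries at month 9 and in 4 of 8 at month 6, with 32 counts in all and at most 16 in a library, so its absence at month 9 lies near the limit that a count of 0 allows. Of the 615 rows with a count in any of the 16 libraries, 43 had a count at month 9 only and 91 at month 6 only. The deepest library, that of PA8912 at month 6, also had the most rows with a count, 492. The part of depth in these counts of rows was not tested.

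Whether this step differed from its neighbours was tested in the same edgeR fit. The step from month 6 to month 9 minus the step from month 3 to month 6 gave 0 called rows (0%), with 7 at an unadjusted p under 0.05 (2.20%), 4 higher (1.26%) and 3 lower (0.943%). The smallest p belonged to miR-122-5p, with a difference of 2.75 log2 (SE 1.04, edgeR adjusted p = 0.997), miR-1301-3p at 1.08 (SE 0.408) and miR-100-5p at 1.38 (SE 0.531). DESeq2 called 12 rows here, 0 of them among the 318, and edgeR without the filter on low counts called 1, miR-122-5p. Month 6 ends the earlier step and begins the later, so a low month 6 enters this difference on both sides. From month 3 to month 6 the log2 changes were -0.97 for miR-122-5p, -0.65 for miR-1301-3p and -0.40 for miR-100-5p.

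The step from month 6 to month 9 minus the step from month 9 to month 15 gave 3 called rows (0.943%), all higher: miR-100-5p, miR-365a-3p/365b-3p and miR-99a-5p. At an unadjusted p under 0.05 there were 45 (14.2%), 19 higher (5.97%) and 26 lower (8.18%). The difference was 2.51 log2 for miR-100-5p (SE 0.499, edgeR adjusted p = 0.00528), 3.38 for miR-365a-3p/365b-3p (SE 0.805, edgeR adjusted p = 0.0251) and 1.83 for miR-99a-5p (SE 0.444, edgeR adjusted p = 0.0251). The month 9 libraries end the earlier step and begin the later, so a high month 9 enters the difference on both sides. The steps also differ in length. The differences of miR-125b-5p, 1.85, and miR-122-5p, 3.23, did not pass (edgeR adjusted p = 0.0923 and 0.184).

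Across the study miR-100-5p averaged 165, 145, 111, 243 and 68.5 CPM at months 0, 3, 6, 9 and 15. miR-99a-5p averaged 287, 240, 208, 356 and 152 CPM, and miR-365a-3p/365b-3p 67.2, 64.7, 55.6, 263 and 35.5 CPM at the same months. In all 3 the highest mean was that of month 9 and the lowest that of month 15. From month 9 to month 15 their log2 changes were -1.53, -1.16 and -1.96 (edgeR adjusted p = 0.00555, 0.0182 and 0.0248), whereas the step from month 6 to month 9 itself did not pass for any of them. miR-122-5p averaged 137500, 160400, 126200, 392800 and 66930 CPM, with the same highest and lowest months.

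The 3 calls depended on single animals, whereas the size of the miR-100-5p difference did not move much. Pairing also bore on them: without the replicate block 1 row was called, miR-365a-3p/365b-3p. Without PA8001, PA8003 or PA8835 the later difference had 0 called rows, and without PA8912 it had 1, miR-100-5p. The edgeR adjusted p of miR-100-5p was 0.139 without PA8001, 0.0635 without PA8003, 0.0539 without PA8835 and 0.0464 without PA8912, and over all alternative settings, other tools included, its adjusted p ran from 0.000105 to 0.269. Its difference was 2.33 without PA8001, 2.34 without PA8003, 2.504 without PA8835 and 2.38 without PA8912, and 2.96 without the block. That of miR-365a-3p/365b-3p was 2.17 without PA8001, 2.02 with log2 CPM of miR-122-5p as a covariate and 5.13 without the block, each over 1.5 times from 3.38. Without the month 9 library of PA8001, or without the month 6 library of PA8912, miR-100-5p was the 1 row called. With log2 CPM of miR-122-5p as a covariate 0 rows were called, and the difference of miR-100-5p was 1.65, over 1.5 times below 2.51 (edgeR adjusted p = 0.103). The miR-122-5p level moved with the same step, and its part in these differences was not tested.

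**Figure D5:**
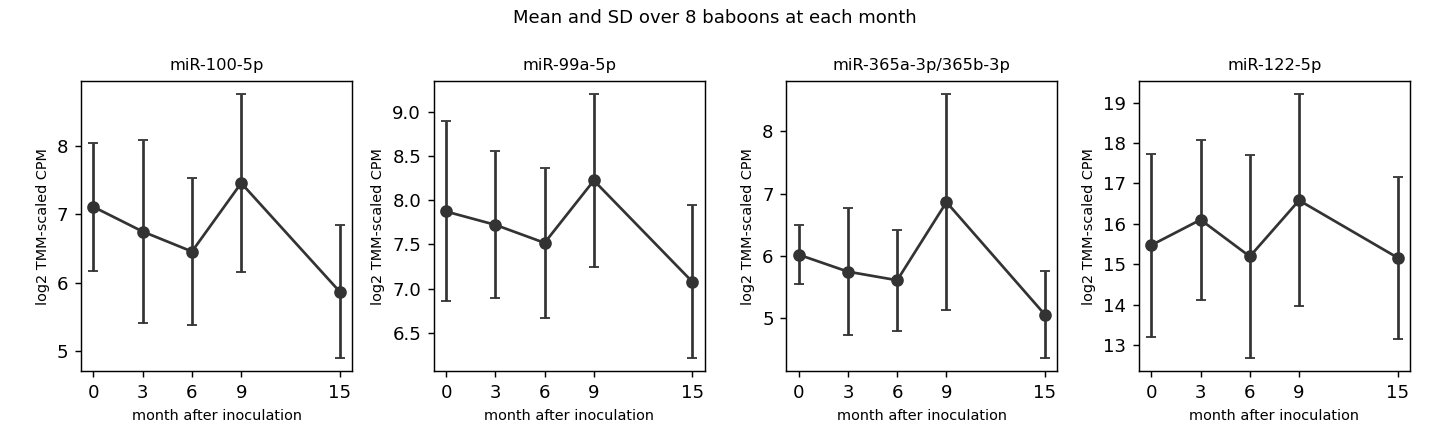
Mean log2 CPM with SD over 8 baboons (error bars) at months 0, 3, 6, 9 and 15 for miR-100-5p, miR-99a-5p, miR-365a-3p/365b-3p and miR-122-5p. The mean is highest at month 9 in each panel, and the error bars of months 9 and 6 overlap.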

How the data were processed

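Small RNA from plasma was made into libraries by adapter ligation, with molecular identifiers added at cDNA synthesis, and sequenced on an Illumina NovaSeq X, per the labels. The deposited values are raw whole-number counts, a row for each mature microRNA. It is not stated whether molecular identifiers or reads were counted. The submitters' processing notes name R 4.5.0, edgeR and limma, with aligner and database not given in the sources used here.

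In R 4.3.3, with edgeR 4.0.16 and limma 3.58.1, rows were filtered by month group (filterByExpr; at least 10 counts, and 15 in total), TMM-scaled and fitted by quasi-likelihood. A single fit of all 40 samples had month and baboon as terms, with Benjamini-Hochberg adjustment over 318 rows and a two-sided threshold of 0.05. SE was derived from the F statistic, and log2 CPM of a library uses a prior count of 2. Differences per baboon are of that log2 CPM. Library measures were compared by exact sign-flip permutation. Each baboon was bled at each month, so pairing comes from the labels; deviations from the month means correlated within 7 of 8 pairs (r of 0.128 to 0.640) and not in PA8915 (r = -0.185). The 8 animals are the replicates.

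Named are every row past the threshold and, to fill up to 10 in each direction, the rows with the smallest unadjusted p; the 10 most abundant rows; for each list up to 4 members by smallest p; miR-451a, miR-23a-3p and miR-122-5p; filtered rows with counts in at least 4 libraries of 1 month and 0 of the other; and, for each difference between steps, the rows called or the 3 with the smallest p. A row outside this rule is named because its months or animals drew attention after its values were seen. The members and lists were chosen with earlier results of these data known. Lists overlap and are described by counts and medians without a set test. Of 272 list entries, 209 distinct, 2 had no matching name.

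Alternatives were other scalings, filters, DESeq2 1.42.0, limma-voom, months 6 and 9 alone, no replicate block, miR-122-5p taken out, the haemolysis index or log2 total count as a covariate, and leaving out each baboon or the month 9 library of PA8001. A miR-122-5p covariate and leaving out the month 6 library of PA8912 were added after seeing the data.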

Additional observations from a re-analysis of the deposited data

Results flagged for a closer look

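Of 68 groups of 8 libraries checked, 2 held a library set apart from the other 7 of its month by Dixon's test at its 95% critical value; chance sets apart about 1 in 20 groups. At month 9 PA8001 had a log2 CPM of 10.5 for miR-365a-3p/365b-3p, with the nearest library at 7.6. At month 9 PA8912 had a log2 CPM of 12.1 for miR-23a-3p/23b-3p, with the nearest at 10.5; this row is also the denominator of the haemolysis index.

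The step from month 6 to month 9 differed from the step from month 9 to month 15 for 3 rows in edgeR: by 2.51 log2 for miR-100-5p, by 3.38 for miR-365a-3p/365b-3p and by 1.83 for miR-99a-5p. Both steps use the month 9 libraries.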

How the results depend on the processing

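For month 9 against month 6 the count of called rows was 0 in every setting except edgeR without the low-count filter (2) and DESeq2 (32). For the difference from the step before it the count was 0 except in those settings (1 and 12), and 0 with each baboon left out in turn. For the difference from the step after it, 3 in the reported fit, the count was 0 with library totals alone, 0 with the miR-122-5p covariate, 1 without the month 9 library of PA8001, 1 without the month 6 library of PA8912, 6 without the filter, 5 with limma-voom and 35 with DESeq2, and leaving out each baboon gave 0 to 4. Without the replicate block, that is without pairing by animal, it was 1 (miR-365a-3p/365b-3p), while the count for month 9 against month 6 was 0 with and without the block. The causes of these moves were not tested.

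Many of the named rows whose sign turned were near 0 or turned when a single animal or library was left out. miR-1-3p, at -0.55 in the reported fit, turned only in limma-voom. miR-378a-3p/378c/378d/378e, at 0.20, turned in 2 settings, both with all animals kept. With library totals alone the log2 change was -0.059 for miR-16-5p, -0.016 for miR-486-5p, -0.023 for let-7b-5p, -0.19 for miR-126-5p, -0.091 for miR-378a-3p/378c/378d/378e and -0.13 for miR-30d-5p. Upper-quartile factors gave -0.047 for miR-126-5p, limma-voom 0.016 for miR-1-3p, the haemolysis covariate -0.070 and no replicate block -0.0088 for miR-486-5p. miR-126-3p was at 0.029 with the size factors of DESeq2, 0.079 with a minimum count of 50, 0.029 in DESeq2, 0.012 in limma-voom, 0.033 with months 6 and 9 alone, 0.0016 without the replicate block, 0.015 with miR-122-5p taken out, 0.042 with the haemolysis covariate, 0.0037 with the total count as a covariate and 0.10 without the month 9 library of PA8001, which also gave 0.045 for miR-93-5p and 0.046 for miR-451a. The miR-122-5p covariate gave 0.080 for miR-126-3p, 0.078 for let-7a-5p/7c-5p, -0.22 for miR-378a-3p/378c/378d/378e and 0.085 for miR-451a. Without the month 6 library of PA8912 the values were 0.020 for miR-126-3p, 0.12 for miR-30b-5p/30c-5p, 0.15 for miR-27a-3p/27b-3p, 0.20 for miR-451a and 0.035 for miR-23a-3p/23b-3p.

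Leaving out each baboon gave ranges of -0.15 to 0.34 for miR-16-5p, -0.015 to 0.33 for miR-486-5p, -0.090 to 0.13 for miR-126-3p, -0.26 to 0.039 for let-7a-5p/7c-5p, -0.19 to 0.025 for miR-93-5p, -0.14 to 0.19 for miR-126-5p, -0.21 to 0.014 for miR-25-3p, -0.21 to 0.69 for miR-31-5p, -0.73 to 0.087 for miR-30b-5p/30c-5p, -0.25 to 0.028 for miR-20b-5p, -0.51 to 0.081 for miR-27a-3p/27b-3p and -0.31 to 0.10 for miR-451a. For the library measures it gave differences of -0.117 to 0.233 in the log2 total count, -15.57 to 2.286 in rows with a count, 0.0332 to 0.393 in the haemolysis index and 0.851 to 1.675 in log2 CPM of miR-122-5p, the highest without PA8915 (exact sign-flip permutation p = 0.0469).

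Rows below a few CPM cannot be told from 0 in the shallower libraries, and intervals and floors cover counting error only.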
